A study of Mus musculus with 10 samples.

Results

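Gm29216, Gm28661, Gm10925, Gm28437, Gm28438, Gm10222 and Gm28439 are annotated mouse pseudogenes that hold mitochondrial sequence inside the nuclear genome. They are the 7 rows, of 45195 gene IDs in the expression matrix, that were chosen by name as unnamed gene models with mitochondrial sequence. They were chosen by values from these same libraries: their high levels, their summed share of each library and its difference between injured and naive neurites. Those values are therefore given as a description, and nothing is read from their fits.

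The RNA came from neurites, the axons and dendrites that cortical neurons of E16.5 mouse embryos sent through the 3 µm pores of a PET membrane, with the cell bodies wiped off the upper side before lysis. Every culture, wild-type ones included, was infected at plating with AAV2 that expresses Cre recombinase from the ubiquitous CAG promoter. The knockout cultures came from Cpeb1 flox/flox mice on a C57BL/6 background, in which Cre removes the flanked part of Cpeb1, a regulator of mRNA polyadenylation and translation. The wild-type cultures came from C57BL/6 mice. There were 2 knockout injured, 2 knockout naive, 3 wild-type injured and 3 wild-type naive libraries. Injured neurites had been scraped off the underside on day 7 and were lysed 24 hours later, on day 8. Naive neurites had grown without a cut until day 8, so that injury and the age of the neurites cannot be told apart. Whether the replicates were separate cultures is not given in the sources used here, and p-values measure the spread between these libraries only.

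Mitochondria carry a small circular genome that encodes a few subunits of the respiratory chain and of ATP synthase, while the nucleus encodes all their other subunits. The circle is read into long transcripts that are cut into mRNAs and given short poly(A) tails, so that libraries primed from poly(A) also capture them. Stretches of mitochondrial DNA have been copied into nuclear chromosomes many times during evolution. Such copies are called nuclear mitochondrial sequences, and a young copy can be identical to its source base for base. In axons, mitochondria are carried along microtubules, and their placement is a well-studied part of axon growth and regrowth.

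The 7 models are the pieces of 1 stretch of 4663 nt on the minus strand of chromosome 1 (chr1:24611535-24616197, mm10). The aligned parts of the models run along the mitochondrial genome from position 6390, inside mt-Co1, to position 11042, inside mt-Nd4, with a shift of 1 base between Gm28438 and Gm10222. The first 9 bases of Gm29216 did not align and are left out of these positions. All 7 are annotated as unprocessed pseudogenes. Gm29216 (chr1:24615706-24616197) holds the last 31.3% of mt-Co1, Gm28661 (chr1:24614885-24615565) mt-Co2, and Gm28437 (chr1:24613189-24613971) mt-Co3. These encode the core subunits of cytochrome c oxidase, complex IV of the respiratory chain. Gm10925 (chr1:24613974-24614651) mt-Atp6, a proton channel subunit of ATP synthase, complex V. Gm28438 (chr1:24612775-24613119) mt-Nd3, Gm10222 (chr1:24612407-24612700) mt-Nd4l, and Gm28439 (chr1:24611535-24612410) holds the first 63.6% of mt-Nd4. These encode membrane subunits of NADH dehydrogenase, complex I. The models of mt-Co2, mt-Atp6, mt-Co3, mt-Nd3 and mt-Nd4l cover all but the last bases of their gene. Gm28439 and Gm10222 overlap by 4 nt, as do the parts of mt-Nd4 and mt-Nd4l that they hold.

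Of the 7 sequences, 5 were identical to the mitochondrial gene over their whole length of 294 to 876 nt. The copy Gm10222 is shown whole because each of its 294 bases is the same in mt-Nd4l, and the first 90 bases of Gm10925, identical to mt-Atp6, stand for the most abundant of the identical copies.
Gm10222: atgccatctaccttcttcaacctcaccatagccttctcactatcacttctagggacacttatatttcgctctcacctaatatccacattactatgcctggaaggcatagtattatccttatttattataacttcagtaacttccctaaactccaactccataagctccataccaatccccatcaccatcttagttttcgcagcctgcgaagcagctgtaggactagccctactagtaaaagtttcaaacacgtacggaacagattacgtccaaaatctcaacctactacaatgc
Gm10925: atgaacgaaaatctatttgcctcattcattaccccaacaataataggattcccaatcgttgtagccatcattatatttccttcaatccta

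Gm28438 differed from mt-Nd3 at 1 of 345 bases, T3C (the mitochondrial base, the position counted from the first base of the copy, then the base of the copy). Gm29216 differed from mt-Co1 at 6 of 492 bases, of which 5 lie in its first 9 bases, outside the aligned part (T3A, C4T, A6G, A7G and C9A), and 1 inside it (A13T). After position 13, Gm29216 has the sequence of mt-Co1 to its end. The first 31 bases of both copies are shown with those of their sources, 5′ to 3′, with capitals at the bases that differ.
Gm28438: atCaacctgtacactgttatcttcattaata
mt-Nd3: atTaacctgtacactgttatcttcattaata
Gm29216: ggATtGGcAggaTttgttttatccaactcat
mt-Co1: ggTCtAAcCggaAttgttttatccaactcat

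None of the 37 genes annotated on the mitochondrial chromosome is among the deposited values. A read that lies within an identical stretch has no base by which the nuclear copy and the mitochondrial transcript can be told apart, and the source of the reads behind the 7 rows was not tested. The nearest other gene models on chromosome 1 had far lower values. The pseudogene Tubb4b-ps2, at a distance of 16112 nt, reached at most 0.082, and the collagen gene Col19a1, at 24063 nt, reached at most 2.69. The gene Lmbrd1, at 62433 nt on the other side, ranged from 9.44 to 28.6 (values on the FPKM scale, fragments scaled by transcript length and library depth, over the 10 libraries).

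The library depth, estimated from regular steps in the values and therefore approximate, was 21380000 to 28180000 fragments, and 12231 to 13143 genes had a value of at least 1. Cpeb1, the targeted gene, had 1.14 and 3.15 in knockout injured libraries, against 1.65, 13.8 and 22.6 in wild-type injured libraries. It had 5.97 and 0.356 in the libraries labelled knockout naive, against 7.16, 5.96 and 5.86 in wild-type naive libraries. The library labelled knockout naive replicate 1 thus lay within the wild-type naive range, and wild-type injured replicate 1 within the knockout injured range. Directions between genotypes follow the labels. Wild-type injured replicate 3 had the fewest genes with a value of at least 1 and the largest share of cytosolic ribosomal RNA, 28.3% of its total, and results that turn on it are given with and without it. All 8 neuron markers reached 1, with summed values of 2130 to 4317. The microglia markers summed to at most 7.14, with Cx3cr1 and Tmem119 at 0 in all libraries. The 5 radial glia markers summed to 2268 to 4774, as high as the neuron markers. The 6 oligodendrocyte lineage markers summed to 107 to 389, so that markers of glial cells were present beside those of neurons.

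**Figure D1:**
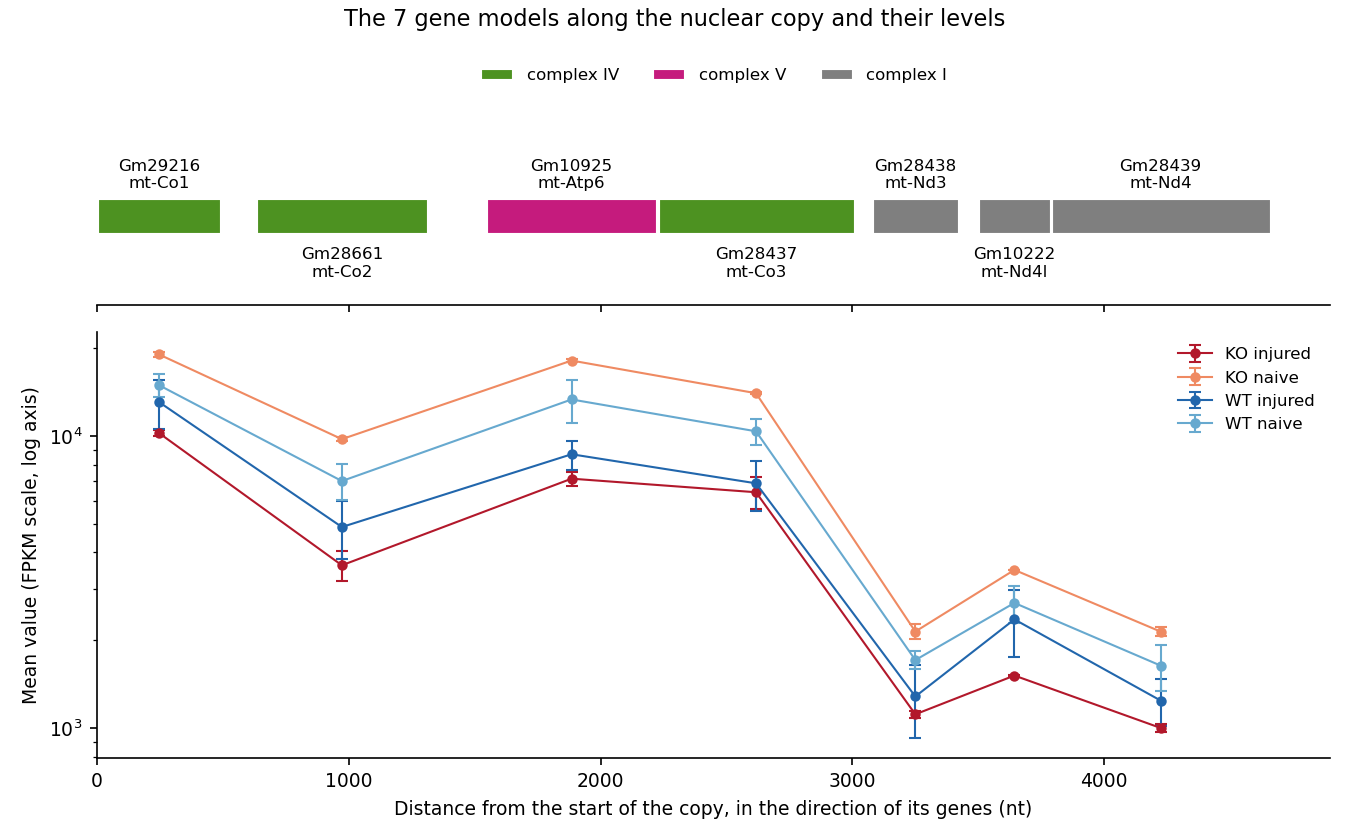
Top, the 7 gene models along the nuclear copy, coloured by the complex whose subunit they hold (x axis, distance in nt from the start of the copy in the direction of its genes). Bottom, the mean value of each model on the FPKM scale (log axis, bars ± SD, n = 2 knockout and n = 3 wild-type libraries a group). The lowest group mean of the complex IV and V models is 3615 (Gm28661, knockout injured), and the highest of the 3 complex I models is 3486 (Gm10222, knockout naive).

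The copies were among the most abundant rows of every library. Gm29216 ranked between 3 and 5 of all 45195 gene IDs, Gm10925 between 4 and 6, and Gm28439, the lowest by rank, between 29 and 79. Per length, the order Gm29216, Gm10925, Gm28437, Gm28661, Gm10222 from high to low was the same in all 10 libraries. Gm28438 and Gm28439 filled the last places and exchanged them between libraries, so those 2 neighbours did not differ beyond their spread. Gm29216 and Gm10925 kept their order, but their distance varied, as given below.

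Among the complex IV copies, Gm29216 (mt-Co1, the catalytic subunit) had values of 10453 and 10064 in knockout injured libraries, against 19379 and 18762 in knockout naive libraries. It had 11780, 11511 and 16008 in wild-type injured libraries, against 16481, 14564 and 13846 in wild-type naive libraries. The knockout groups did not overlap, whereas the wild-type groups did, through the value of 16008 in wild-type injured replicate 3. Gm28661 (mt-Co2, which holds the copper site that takes electrons from cytochrome c) had 3913 and 3318 in knockout injured, against 9873 and 9677 in knockout naive libraries. It had 4165, 4348 and 6153 in wild-type injured, against 8137, 6651 and 6286 in wild-type naive libraries, and both pairs of groups stood apart. Gm28437 (mt-Co3, a core subunit without metal centres) had 7000 and 5863 in knockout injured, against 14115 and 13972 in knockout naive libraries. It had 6031, 6204 and 8467 in wild-type injured, against 11441, 10431 and 9326 in wild-type naive libraries, again without overlap.

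The complex V copy Gm10925 (mt-Atp6) had 7452 and 6863 in knockout injured libraries, against 17979 and 18357 in knockout naive libraries. It had 7673, 8707 and 9653 in wild-type injured libraries, against 15848, 12758 and 11499 in wild-type naive libraries. The lowest naive library of each genotype was above every injured library of that genotype.

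The complex I copies were lower. Gm10222 (mt-Nd4l, a small subunit of the proton-pumping arm) had 1520 and 1511 in knockout injured, against 3481 and 3491 in knockout naive libraries, and 1864, 2178 and 3037 in wild-type injured, against 3087, 2662 and 2311 in wild-type naive libraries. Gm28438 (mt-Nd3, which lies where the arms of the complex meet) had 1094 and 1138 in knockout injured, against 2052 and 2235 in knockout naive libraries, and 1153, 1007 and 1694 in wild-type injured, against 1841, 1697 and 1599 in wild-type naive libraries. Gm28439 (mt-Nd4, a proton-pumping subunit) had 1026 and 979 in knockout injured, against 2087 and 2198 in knockout naive libraries, and 1035, 1213 and 1483 in wild-type injured, against 1958, 1585 and 1373 in wild-type naive libraries. In all 3 the knockout groups stood apart and the wild-type groups overlapped, each time through wild-type injured replicate 3.

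**Figure D2:**
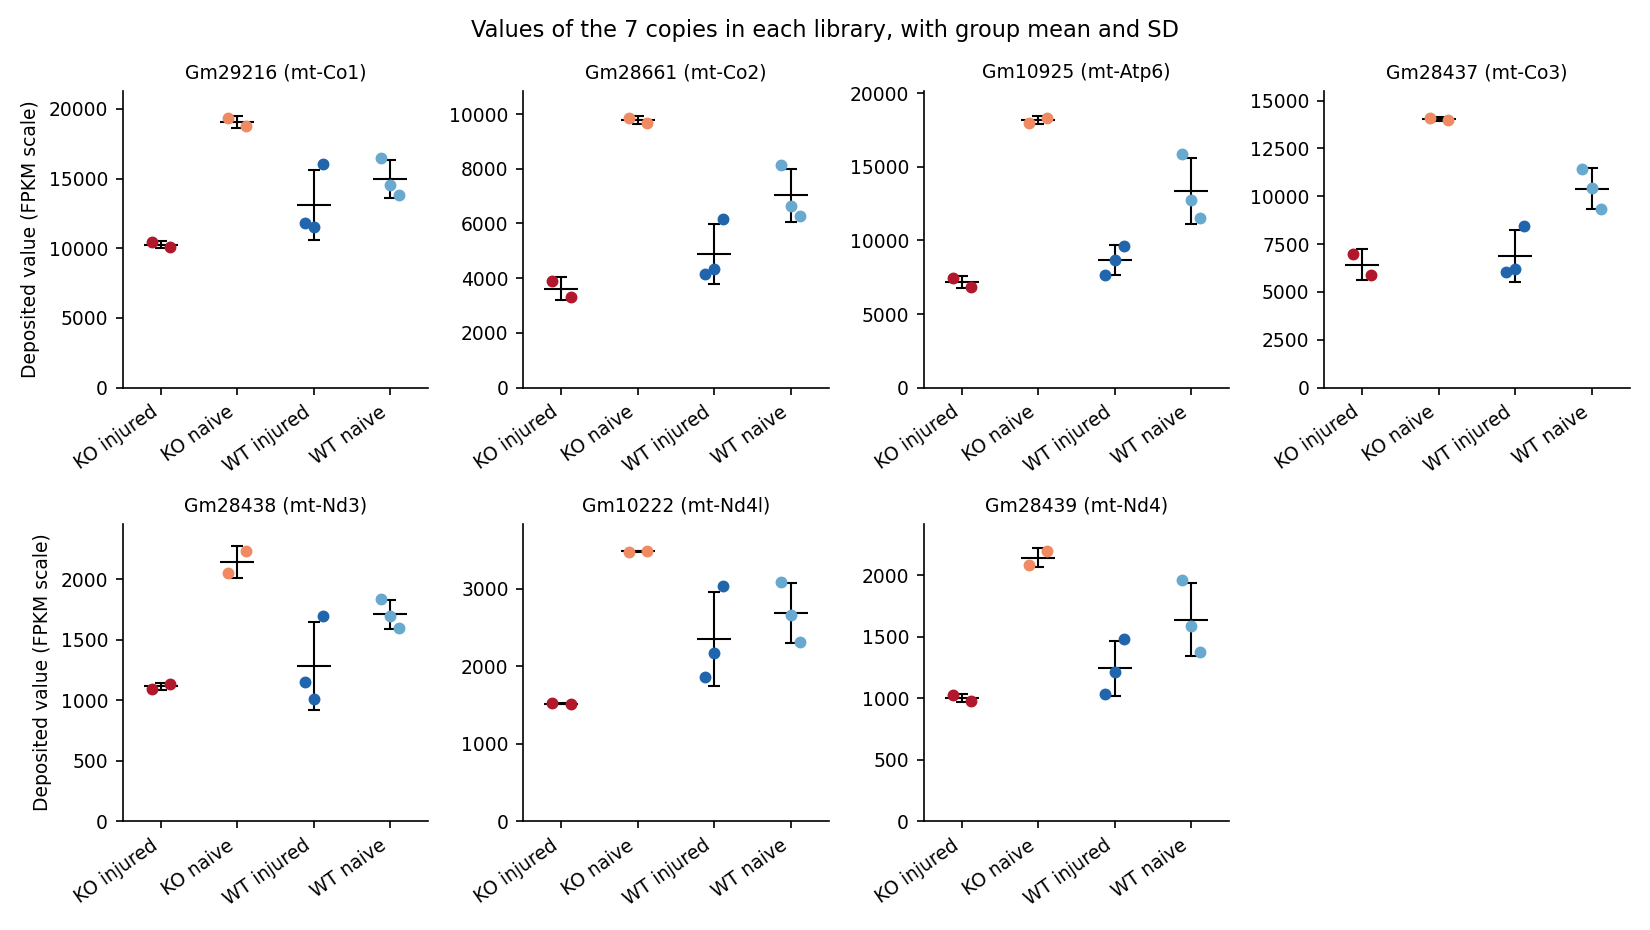
Value of each copy in every library (y axis, FPKM scale; points are libraries, the line and bars are the group mean ± SD, n = 2 knockout and n = 3 wild-type libraries a group). In the 7 panels the knockout naive libraries are the highest group, and wild-type injured replicate 3 is the highest of its group.

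In knockout neurites all 7 copies were lower in the injured libraries, with log2 fold changes between -1.44 and -0.89 (limma on log2(value + 1), all 10 libraries in 1 fit, p adjusted by Benjamini-Hochberg over the 15712 genes that reached 1 in no fewer than 2 libraries). Every copy passed that filter in all 10 libraries. Gm28661 differed by -1.44 ± 0.21 (log2 fold change ± SE, n = 2 and 2) and Gm10925 by -1.34 ± 0.18, with a limma adjusted p of 0.0322 each, past the threshold of 0.05. The other 5 did not pass: Gm10222 had -1.201 ± 0.22 (limma adjusted p = 0.104), Gm28437 -1.13 ± 0.19 (0.0769), Gm28439 -1.10 ± 0.20 (0.118), Gm28438 -0.94 ± 0.22 (0.311) and Gm29216 -0.89 ± 0.18 (0.212). Of all genes tested 0.0573% passed, 9 in number, and the 2 copies are among them. The groups of all 7 copies did not overlap, beside 22.1% of all genes tested that were lower in injured knockout libraries without overlap. The p-values and calls of the copies after injury, in both genotypes, and these shares are printed for reading only. The difference after injury was known when the copies were taken up, so they lend it no support. The calls rest on few libraries: without wild-type injured replicate 3, which is in neither knockout group, all 7 copies passed, among 20 genes in all. Without wild-type injured replicate 2 the same number passed, 2, and leaving out any other single library left 0. Over all alternatives the adjusted p of Gm28661 ranged from 0.00564 to 0.52 and that of Gm10925 from 0.00701 to 0.561.

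In wild-type neurites the log2 fold changes after injury lay between -0.62 and -0.20, and 0 of 7 passed, beside 0.948% of all genes tested (149 genes). At an unadjusted p under 0.05 there were 5, beside 13.9% of all genes. Gm10925 differed by -0.62 ± 0.15 (SE, n = 3 and 3; limma adjusted p = 0.0807), Gm28437 by -0.60 ± 0.16 (0.106), Gm28661 by -0.54 ± 0.17 (0.189), Gm28438 by -0.45 ± 0.18 (0.282) and Gm28439 by -0.40 ± 0.17 (0.315). Gm10222 had -0.21 ± 0.18 (limma adjusted p = 0.648) and Gm29216 -0.20 ± 0.15 (0.592). The groups of 3 copies, Gm28661, Gm10925 and Gm28437, did not overlap, beside 8.02% of all genes that were lower without overlap. Without wild-type injured replicate 3, 4 of 7 passed (Gm28661, Gm10925, Gm28437 and Gm28438), and the count over all genes was 84. The median over all genes tested was 0.01 in wild-type and -0.09 in knockout neurites.

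**Figure D3:**
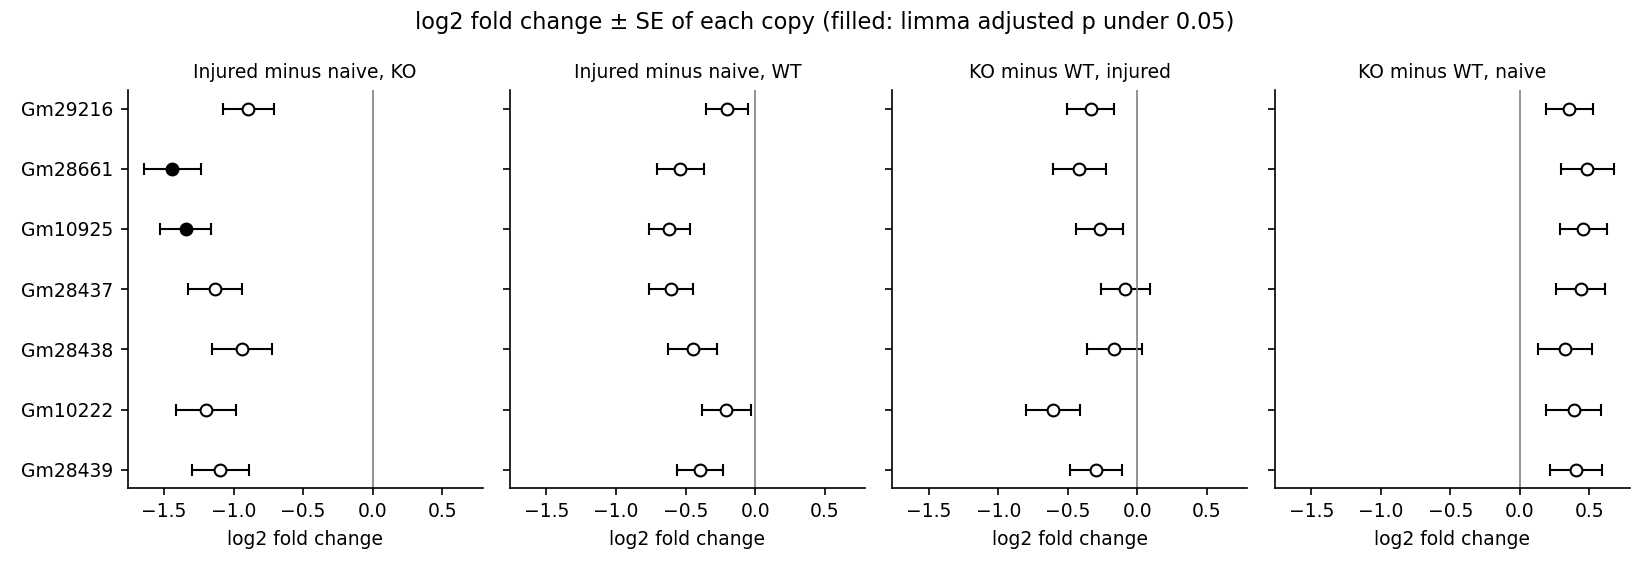
log2 fold change ± SE of each copy from limma in 4 comparisons (x axis; filled points have an adjusted p under 0.05, open points do not). The 2 filled points are Gm28661 and Gm10925 in knockout neurites, at -1.44 and -1.34, and between genotypes all 7 values are above 0 in naive and below 0 in injured neurites, where quantile normalization turned Gm29216 and Gm28437 positive.

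Between the genotypes, the copies were higher in knockout than in wild-type naive libraries without overlap in 7 of 7, beside 14.1% of all genes tested that were higher without overlap. The 7 copies lie in 1 stretch and hold neighbouring mitochondrial genes, so they do not count as 7 independent results. Their log2 fold changes lay between 0.33 (Gm28438) and 0.49 (Gm28661), none passed (limma adjusted p = 1 each), and 0.146% of all genes passed (23 genes). At an unadjusted p under 0.05 there were 3 copies, beside 3.76% of all genes. In injured neurites 5 of 7 copies were lower in knockout than in wild-type libraries without overlap, beside 12.2% of all genes. Gm28437 and Gm28438 overlapped. Log2 fold changes between knockout and wild-type injured libraries lay between -0.61 (Gm10222, limma adjusted p = 0.313) and -0.09 (Gm28437, limma adjusted p = 0.881), with 2 copies at an unadjusted p under 0.05, beside 10.5% of all genes. None passed, against 0.261% of all genes (41 genes). The difference of the injury effect between knockout and wild type was negative for all 7, from -0.99 ± 0.28 for Gm10222 (limma adjusted p = 0.729) to -0.49 ± 0.28 for Gm28438 (0.807). No gene passed in that comparison, 0% of all tested, with 979 genes (6.23%) at an unadjusted p under 0.05, 5 of them copies. The signs in injured neurites depended on scaling and on single libraries: under quantile normalization Gm29216 and Gm28437 were higher in knockout, at 0.28 and 0.29, and without wild-type injured replicate 3 Gm28437 and Gm28438 were, at 0.07 and 0.05. Without knockout injured replicate 2 Gm28437 was at 0.04. In naive neurites the sign of all 7 was the same under every alternative run, including without the library labelled knockout naive replicate 1.

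As a share of the library total, the 7 copies together held 4.38% and 3.88% in knockout injured libraries, against 7.05% and 8.24% in knockout naive libraries. They held 3.89%, 4.09% and 3.97% in wild-type injured libraries, against 7.25%, 6.93% and 5.74% in wild-type naive libraries. Every injured library lay below every naive library, with means ± SD of 4.13% ± 0.348 against 7.65% ± 0.840 in knockout (n = 2 each) and 3.98% ± 0.0974 against 6.64% ± 0.795 in wild-type neurites (n = 3 each). Between genotypes the shares overlapped in injured and in naive neurites. Weighted by transcript length, the same rows held 1.12% to 2.49% of the total. In bulk samples, fewer neurites of a kind and less RNA per neurite cannot be told apart.

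The size of the wild-type difference depends on what else is in the total. Counted as cytosolic ribosomal RNA were the genes annotated as such and the models that overlap the annotated gene CT010467.1. The overlapping model AY036118 is annotated as a long noncoding RNA. It held up to 19.4% of a library total, against up to 9.32% for CT010467.1. Together these cytosolic ribosomal RNA genes took 19.9% to 28.3% of the total in wild-type injured libraries, against 11.1% to 16.4% in wild-type naive libraries. They took 12.1% to 15.1% in knockout injured libraries, against 12.6% to 16.9% in knockout naive libraries. The log2 difference of the summed share was -0.73 in wild type with these genes in the total and -0.56 without them, and the log2 difference of the summed values themselves was -0.44. In wild-type neurites the summed values overlapped, at 33700, 35168 and 46496 in injured libraries, against 58792, 50348 and 46241 in naive libraries. In knockout neurites they did not, at 32458 and 29735 in injured, against 68967 and 68693 in naive libraries.

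**Figure D4:**
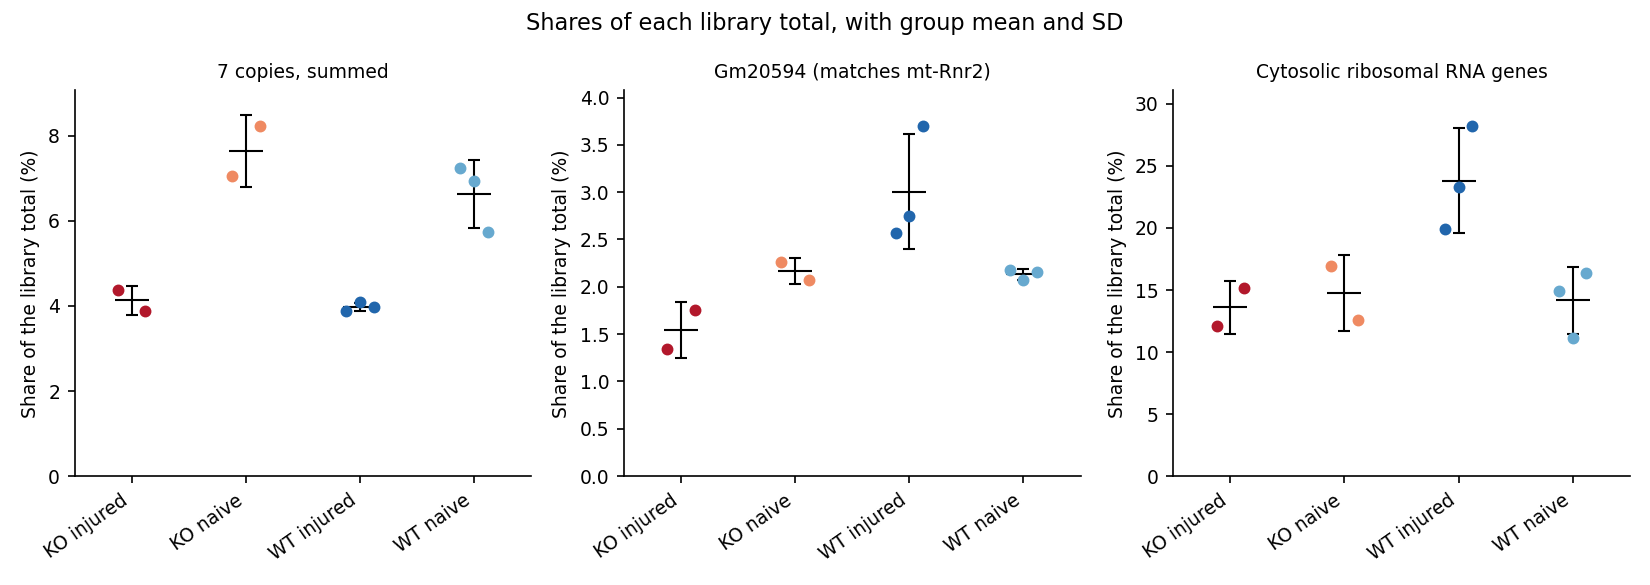
Share of each library total (y axis, %) held by the 7 copies together, by Gm20594 and by cytosolic ribosomal RNA genes with the overlapping models counted among them. Points are libraries, line and bars are the group mean ± SD, n = 2 knockout and n = 3 wild-type libraries a group. The copies lie at 3.88% to 4.38% in injured and 5.74% to 8.24% in naive libraries, while the ribosomal RNA genes are highest in wild-type injured libraries.

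The copies did not keep fixed proportions. Gm29216 made up 33.0% ± 1.16 of their sum in knockout injured libraries, against 27.7% ± 0.556 in knockout naive libraries (SD, n = 2 each). It made up 34.0% ± 1.16 in wild-type injured libraries, against 29.0% ± 0.957 in wild-type naive libraries (SD, n = 3 each), and no injured library overlapped a naive one. The ratio of Gm29216 to Gm28661 was 2.67 and 3.03 in knockout injured, against 1.96 and 1.94 in knockout naive libraries. In wild-type neurites that ratio was 2.83, 2.65 and 2.60 in injured, against 2.03, 2.19 and 2.20 in naive libraries. The ratio of Gm29216 to Gm10925 was likewise higher in each injured library, at 1.40 and 1.47 in knockout injured, against 1.08 and 1.02 in knockout naive libraries. It was 1.54, 1.32 and 1.66 in wild-type injured, against 1.04, 1.14 and 1.204 in wild-type naive libraries. These ratios compare rows within a library and do not depend on its total.

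**Figure D5:**
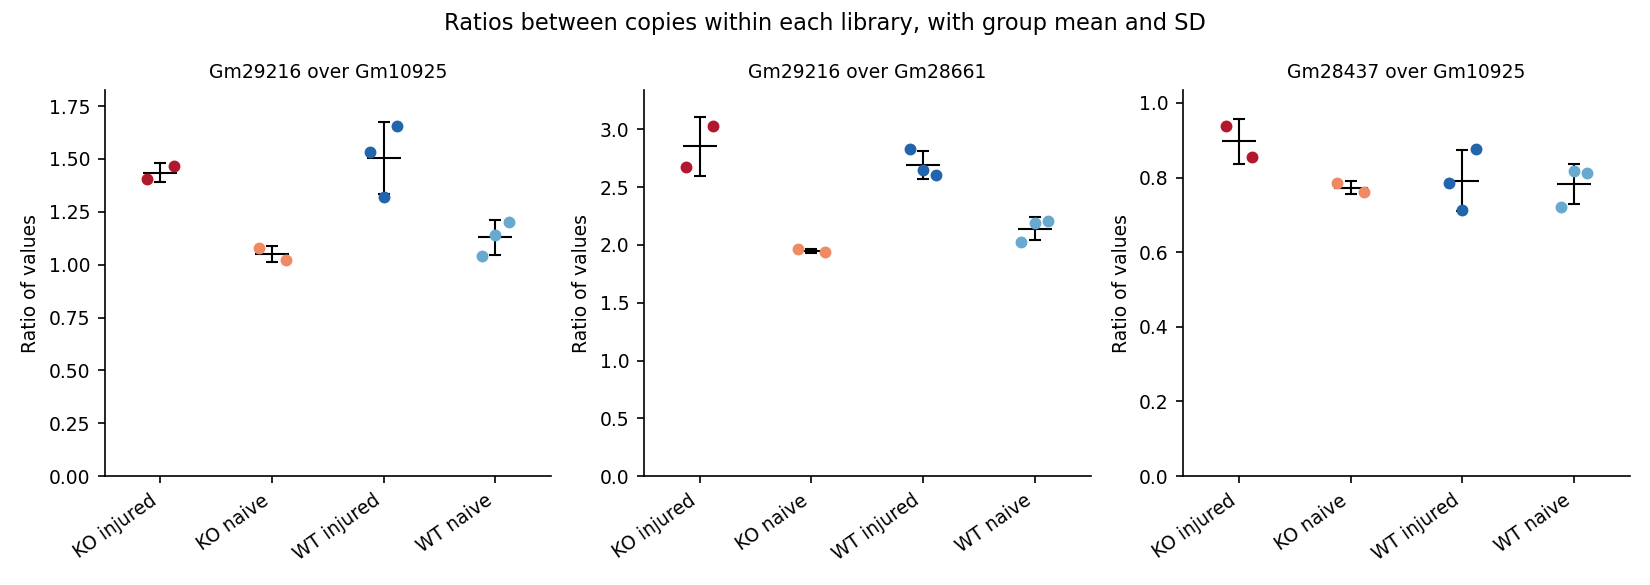
Ratio of the values of 2 copies within each library (y axis; points are libraries, line and bars are the group mean ± SD, n = 2 knockout and n = 3 wild-type libraries a group). Gm29216 over Gm28661 lies at 2.60 to 3.03 in injured and 1.94 to 2.20 in naive libraries, and Gm28437 over Gm10925 overlaps between the wild-type groups.

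A further 24 gene models in the matrix matched a mitochondrial gene, of which 13 never exceeded 1. Those described here, all above 10, match their source less closely than the 7 copies do. Gm13340 (chr2:22588103-22589647, minus strand) holds the whole of mt-Co1 with 37 differences, 13 of them in the part that Gm29216 also holds. Within a window of 75 bases (positions 1177 to 1251 of mt-Co1), Gm29216 equals mt-Co1 and Gm13340 differs at 4 bases, shown in capitals, so that reads over them can be assigned between those rows.
Gm29216: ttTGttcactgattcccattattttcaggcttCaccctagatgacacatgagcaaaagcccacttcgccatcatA
mt-Co1: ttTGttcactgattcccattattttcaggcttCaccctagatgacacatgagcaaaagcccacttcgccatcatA
Gm13340: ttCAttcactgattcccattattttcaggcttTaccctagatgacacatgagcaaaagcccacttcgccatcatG

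Gm13340 had 4885 and 4458 in knockout injured, against 8620 and 9318 in knockout naive libraries, with -0.94 ± 0.17 as its log2 fold change (limma adjusted p = 0.119). In wild type it had 4775, 5036 and 5661 in injured, against 8478, 7081 and 6284 in naive libraries (-0.49 ± 0.14, limma adjusted p = 0.157). Gm13341 (chr2:22587291-22587962, minus strand), which holds mt-Co2 at 95.9% identity, stayed at 31.2 to 87.0 in the same libraries in which Gm28661, identical to mt-Co2, had 3318 to 9873. Gm11410 (chr4:80003989-80005131, plus strand) holds mt-Cytb, a gene of complex III that lies outside the chromosome 1 stretch, at 92.9% identity. It fell in injured neurites of both genotypes, by 1.14 ± 0.17 on the log2 scale in knockout (limma adjusted p = 0.0322) and by 0.74 ± 0.14 in wild type (limma adjusted p = 0.0272). Both calls depended on the fit: over 18 alternatives Gm11410 passed in 5 in knockout (limma adjusted p from 0.00969 to 0.979) and in 11 in wild type (0.00661 to 0.313). In knockout the call was lost with a pseudocount of 0.1, no filter, quantile normalization, no trend, only the compared groups, or any single library left out other than wild-type injured replicates 2 and 3. In wild type it was lost with no filter, no trend, only the compared groups, without wild-type injured replicate 1 or without any 1 of the wild-type naive libraries. The log2 fold change was below 0 throughout.

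Gm20594 (chr6:79817916-79818364, plus strand) matches mt-Rnr2, the large ribosomal RNA of mitochondria, at 88.4% identity, and had the opposite sign to the 7 copies in wild type. It had 22208, 23667 and 43402 in wild-type injured libraries, against 17636, 15028 and 17408 in wild-type naive libraries (log2 fold change 0.77 ± 0.23, limma adjusted p = 0.172). In knockout it had 9934 and 13452 in injured, against 22092 and 17247 in naive libraries (-0.76 ± 0.28, limma adjusted p = 0.792). Among wild-type libraries its values were highest where the cytosolic ribosomal RNA share was highest, and the part of ribosomal RNA in the values of the copies was not tested. Gm11408 (chr4:80003396-80003914, minus strand), which matches mt-Nd6, the only mitochondrial mRNA read from the other strand of the circle, had 336, 326 and 568 in wild-type injured, against 243, 266 and 246 in wild-type naive libraries (0.66 ± 0.20, limma adjusted p = 0.183). In knockout it had 325 and 288 in injured, against 346 and 313 in naive libraries. The strand of its reads was not tested. Gm13339, which matches mt-Nd2 at 96.7% identity, also had a positive sign in wild type (0.56 ± 0.32, limma adjusted p = 0.474). It had 783, 882 and 2242 in wild-type injured, against 1033, 807 and 584 in wild-type naive libraries. Gm4076 and Gm11407, which match mt-Nd5, had -0.23 ± 0.18 and -0.15 ± 0.22 in wild type (limma adjusted p = 0.599 and 0.797). In knockout Gm13339, Gm4076 and Gm11407 had -0.90, -1.07 and -1.03, and none passed.

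Nuclear genes for mitochondria were set beside the copies, 240 tested of 241 found in the matrix, and by limma none passed in any of the 5 comparisons. At an unadjusted p under 0.05 there were 25 after injury in knockout (10.4%, beside 5.73% of all genes) and 26 in wild type (10.8%, beside 13.9%). Between genotypes there were 18 in injured neurites (7.50%, beside 10.5%) and 31 in naive neurites (12.9%, beside 3.76%), and for the difference of the injury effects 17 (7.08%, beside 6.23%). In knockout neurites the median log2 fold change after injury was -0.31 for 36 complex I subunits (33 below 0), -0.08 for 4 complex II subunits (3 below 0), -0.18 for 9 complex III subunits (9 below 0), -0.55 for 11 complex IV subunits (11 below 0) and -0.23 for 15 complex V subunits (14 below 0), beside -0.09 for all genes. In wild-type neurites the medians were 0.06, 0.10, 0.05, -0.07 and 0.05 in the same order, beside 0.01 for all genes. Between knockout and wild-type naive libraries these medians were 0.34, 0.15, 0.36, 0.37 and 0.42, beside 0.06 for all genes. Of complex IV, Cox4i1, a regulatory subunit, averaged 1388 ± 147 in knockout injured, against 2021 ± 364 in knockout naive libraries (-0.53 ± 0.23, limma adjusted p = 0.852). Cox6b1, which lies on the outer face of the enzyme, averaged 1413 ± 77.9 in knockout injured, against 2152 ± 345 in knockout naive libraries (-0.60 ± 0.20, limma adjusted p = 0.701). In wild type Cox4i1 had -0.35 ± 0.19 and Cox6b1 -0.20 ± 0.16 (limma adjusted p = 0.438 and 0.624), with 9 of 11 complex IV subunits below 0. Atp5g2 of complex V and Ndufc2 of complex I had 0.60 ± 0.21 and 0.43 ± 0.17 in wild type (limma adjusted p = 0.232 and 0.296). There 3 of 15 complex V and 16 of 36 complex I subunits were below 0. The summed values of the 3 complex IV copies were 1.85 to 1.90 times those of the 11 nuclear subunits in knockout injured, against 2.53 to 2.94 times in knockout naive libraries. In wild-type neurites that ratio was 2.06 to 2.28 in injured, against 2.27 to 2.91 in naive libraries, which overlapped slightly. For complex I, the 3 copies stood at 0.367 to 0.376 times the 36 nuclear subunits in knockout injured, against 0.549 to 0.675 times in knockout naive libraries. In wild type they stood at 0.434 to 0.517 times in injured, against 0.501 to 0.691 times in naive libraries, with overlap. For complex V, Gm10925 alone stood at 0.782 to 0.857 times the 15 nuclear subunits in knockout injured, against 1.61 to 1.98 times in knockout naive libraries. In wild type it stood at 0.932 to 1.18 times in injured, against 1.41 to 1.96 times in naive libraries.

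Genes that keep or read the mitochondrial genome did not pass either. Tfam, which packages mitochondrial DNA and starts its transcription, averaged 23.2 ± 2.20 in knockout injured, against 30.1 ± 11.0 in knockout naive libraries (SD, n = 2 each). It averaged 30.9 ± 8.01 in wild-type injured, against 18.5 ± 4.50 in wild-type naive libraries (SD, n = 3 each; log2 fold change 0.71 ± 0.32, limma adjusted p = 0.354). For Polrmt, the mitochondrial RNA polymerase, the log2 fold change after injury was 0.26 ± 0.57 in knockout and -0.21 ± 0.46 in wild type (limma adjusted p = 1 and 0.884). Lrpprc, which binds and stabilizes mitochondrial mRNAs, had 0.02 ± 0.43 in knockout and 0.15 ± 0.35 in wild type (limma adjusted p = 1 and 0.895). Ppargc1a, a coactivator that drives mitochondrial biogenesis, averaged 1.30 ± 1.76 in knockout injured, against 7.90 ± 2.16 in knockout naive libraries (-2.18 ± 0.87, limma adjusted p = 0.795). Its values were low, and in knockout injured libraries the SD was above the mean. In wild type it averaged 4.96 ± 4.29 in injured, against 5.68 ± 2.26 in naive libraries (-0.45 ± 0.71, limma adjusted p = 0.824).

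The 5 named genes whose pattern over the 10 libraries was most like that of the summed copies were Wsb2, Aes, Zcchc12, Cplx2 and Ndufa1. The measure is the root mean square difference of log2 values centred on each gene's mean, and it was 0.163, 0.175, 0.199, 0.200 and 0.200 for these genes out of 7377 ranked, and 0.0621 to 0.140 for the copies themselves. Wsb2, a substrate receptor of ubiquitin ligases, averaged 62.3 ± 4.83 in knockout injured, against 132 ± 4.08 in knockout naive libraries (SD, n = 2 each), and 70.9 ± 12.1 in wild-type injured, against 110 ± 2.79 in wild-type naive libraries (SD, n = 3 each). Ndufa1, a nuclear subunit of complex I, averaged 461 ± 30.2 in knockout injured, against 792 ± 134 in knockout naive libraries, and 544 ± 110 in wild-type injured, against 617 ± 85.5 in wild-type naive libraries.

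Marker levels also differed between injured and naive libraries, though not in every list or genotype. The 8 neuron markers summed to 2130 to 2883 in wild-type injured, against 3374 to 3735 in wild-type naive libraries, lower without overlap as 3 of the copies were. In knockout they overlapped, at 2967 to 3991 in injured, against 3937 to 4317 in naive libraries. The 5 projection neuron markers went the other way in knockout, at 302 to 362 in injured, against 253 to 283 in naive libraries. In wild type the projection neuron markers overlapped, at 209 to 285 in injured, against 210 to 240 in naive libraries. All 5 interneuron markers reached 1, and their summed values were 44.3 to 61.3 in knockout injured, against 306 to 509 in knockout naive libraries, and 45.5 to 53.8 in wild-type injured, against 322 to 548 in wild-type naive libraries. The 7 astrocyte markers summed to 699 to 776 in knockout injured, against 464 to 536 in knockout naive libraries, and to 569 to 1390 in wild-type injured, against 380 to 519 in wild-type naive libraries. The 6 oligodendrocyte lineage markers were also higher in knockout injured libraries, at 233.6 to 237.5, against 107.0 to 204.2 in knockout naive libraries. In wild type the oligodendrocyte lineage markers overlapped, at 160.3 to 389.1 in injured, against 146.3 to 166.0 in naive libraries. RNAs kept in the nucleus (Malat1, Neat1, Meg3 and Miat), a sign of cell bodies, summed to 6011 to 7226 in wild-type injured, against 2665 to 4082 in wild-type naive libraries, and to 1743 to 2924 in knockout injured, against 2242 to 3107 in knockout naive libraries, where they overlapped. The part of these cells and RNAs in the values of the copies was not tested.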

How the data were processed

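Poly(A) RNA was reverse transcribed by Smart-seq2, per the labels' protocols, with an oligo(dT) primer; the input was 1 ng, and PCR ran for 14 cycles before tagmentation of 500 pg and for 11 after it. STAR 2.4.2a, RSEM 1.2.21 and the mm10 build are named per the submitters' processing notes; the handling of reads with several matching places is not given in the sources used here. Deposited values are read as FPKM that the authors divided by 1 factor per library; this unit rests on the values. In every library 100% of values below 20 lay on whole multiples of 0.01 times a factor (within 0.12 of a step). Of 45195 Ensembl gene IDs 44548 matched GENCODE release M21, the source of names, coordinates and sequences; 647 did not.

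Groups follow the labels. Differences were tested with limma 3.58.1 under R 4.3.3, on log2(value + 1) and with a trended eBayes prior; the 4 groups shared 1 fit over genes that reached 1 in no fewer than 2 libraries. The script was tested on simulated data. Fold changes on this scale understate those of low genes. Sequences were compared with blastn 2.17.0 (word size 16, e-value at most 1e-10) against transcripts of the mitochondrial chromosome, and then base by base. Tables and figures used python 3.11.15, numpy 2.4.6, pandas 2.3.3 and matplotlib 3.10.9.

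The 7 copies and the gene lists were chosen with earlier results of these data known. A permutation test of the summed share was planned and is not given, since the copies were chosen with that share known. Named genes were the copies, up to 4 tested genes a list with the smallest p in wild-type injury (a few of them are printed), Tfam, Polrmt, Lrpprc, Ppargc1a and Cpeb1, and the 5 genes most alike; other copies of mitochondrial sequence were named after their values were seen. Alternatives were another pseudocount, no filter, quantile and median-ratio scaling, no trend, fits of the compared groups alone, a replicate block, each library left out, and other definitions of the share. Same-numbered libraries did not deviate together (r of deviations from -0.0484 to 0.0409 over all tested genes), so the numbers were not taken as pairs.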

Additional observations from a re-analysis of the deposited data

Results flagged for a closer look

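In 5 copies every knockout library was above every wild-type library in naive neurites and below every wild-type library in injured neurites. Of all genes tested, 14.1% were higher in knockout than in wild-type naive libraries without overlap. In injured libraries, 12.2% were lower in knockout without overlap. The share of all genes with both traits was not computed, so the count of 5 has no background to be read against. The 5 copies are also pieces of 1 stretch and not independent results. The knockout minus wild-type log2 difference in injured minus that in naive neurites was -0.69 for Gm29216, -0.90 for Gm28661, -0.73 for Gm10925, -0.99 for Gm10222 and -0.70 for Gm28439. By limma none of these differences passed (adjusted p = 0.791, 0.791, 0.791, 0.729 and 0.791, n = 2 knockout and 3 wild-type libraries a condition). The summed value of the 7 copies went the same way, with a difference of -0.71, which was not tested. As a share of the library total the genotype difference had the same sign in both conditions, 0.05 in injured and 0.21 in naive neurites. Under quantile normalization the difference between conditions was 0 for Gm29216.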

How the results depend on the processing

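The log2 difference of the summed share after injury, -0.81 over both genotypes, was negative under every alternative run, and with the wider set of models at 85% identity over 150 nt, added after seeing the data, it was -0.59. In wild type (-0.73) it was -0.56 without ribosomal RNA genes, -0.59 over protein-coding genes, -0.40 with the wider set and -0.44 from summed values, an alternative also added later; in knockout (-0.89) summed values gave -1.15. The genotype difference in injured neurites (0.05) reversed to -0.13 without ribosomal RNA genes, -0.19 over protein-coding genes, -0.0329 weighted by length, -0.22 with the wider set and -0.29 from summed values; over both conditions (0.13) the wider set gave -0.0312, and in naive neurites (0.21) summed values gave 0.42 and the replicate block 0.11. Leaving out 1 library gave -0.0359 to 0.136 for the share in injured neurites and 0.0948 (without knockout naive replicate 2) to 0.319 (without knockout naive replicate 1) in naive neurites, with 0.11 without wild-type naive replicate 3. By limma, genes called after injury in wild type (149) were 25 with no filter, 77 with no trend and 90 with only the compared groups, and 35 to 311 with 1 library left out. In knockout (9) they were 1 with a pseudocount of 0.1, 33 with no filter, 4 after quantile normalization, 1 with no trend, 0 with only the compared groups and 0 to 20 with 1 library left out. Between genotypes they were 24 to 57 in injured neurites (41) with 1 library left out and 52 with no filter in naive neurites (23); for the difference of injury effects (0) they were 13 with no filter, 3 with no trend and 0 to 2 with 1 library left out. Copies called after injury in wild type (0) were 1 after quantile normalization, 2 after median-ratio scaling and 0 to 4 with 1 library left out; in knockout (2) they were 0 with a pseudocount of 0.1, no filter, quantile normalization, no trend or only the compared groups, and 0 to 7 with 1 library left out. Without wild-type injured replicate 3 and the library labelled knockout naive replicate 1 together, an alternative added later, 3 copies passed in wild type and 4 in knockout, among 63 and 9 genes. Of the nuclear genes, 1 passed after injury in wild type under quantile normalization, against 0. Quantile normalization, which ties the top ranks, gave 0 for Gm29216 in both injury comparisons and in their difference, 0 for Gm10925, 0.28 for Gm29216 and 0.29 for Gm28437 between genotypes in injured neurites, and 0.12 for Gm28437 in the difference of injury effects. Gm28437 in injured neurites was also 0.00228 under median-ratio scaling, and ranged from -0.2175 to 0.0666 with 1 library left out, as Gm28438 did from -0.324 to 0.0508. Both highest values come without wild-type injured replicate 3, alone or with knockout naive replicate 1 left out too. The cause of these changes was not tested. Same-numbered libraries did not deviate together, and the replicate block left 5 genes called after injury in knockout, against 9, with 2 copies called as without it. Depth was estimated, so no counting intervals are given.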
